A study of Mus musculus with 4 samples.

Results

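Nonclassical monocytes, the monocytes that crawl along the inner wall of small blood vessels and are therefore called patrolling, were examined in lungs with and without lamin A/C in blood-derived cells. A cell was taken as a nonclassical monocyte when it had at least 200 genes, at most 10% mitochondrial counts, and at least 1 unique molecular identifier (UMI, a count of 1 captured RNA molecule) of at least 3 of 6 genes, Ace, Treml4, Adgre4, Eno3, Cd300e and Hfe. It also had fewer than 5 UMIs of C1qa, C1qb and C1qc together and none of Cd79a or Cd3e, limits meant to set aside C1q-high macrophages, B cells and T cells. Of 15181 cells that passed the first 2 filters, 1282 were taken. The cells were thus chosen by their measured expression, and the levels of these genes are described below without a test.

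Lung cells of C57BL/6J mice, 10 weeks old, had been sorted as live and positive for CD45.2, a surface protein of immune cells. The 2 WT mice were Lmna-flox/flox Vav1-cre-/-, with the loxP-flanked gene but no Cre. The 2 knockout mice were Lmna-flox/flox Vav1-cre+/-, and Vav1-cre drives Cre recombinase in the blood-forming lineage as a whole, so that Lmna can be cut in all blood cells and not in monocytes alone. Both groups thus carry the loxP-flanked alleles, and Cre was present in knockout mice only, so the effect of Cre or of its transgene and the loss of lamin A/C cannot be told apart. Each genotype had 2 libraries, made with a kit that counts the 3-prime ends of transcripts, and levels are given as CPM, the UMIs of a gene in the summed cells of a library scaled to a common total of UMIs. Values of a pair of libraries stand in the order library 1, library 2. In the comparison of genotypes the library totals were adjusted by the TMM method, which shifts the CPM of a gene slightly. The labels give 2 mice and 2 libraries a genotype but do not state outright that each library is 1 mouse, so the p values measure the spread between these libraries, which may be technical.

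Monocytes leave the bone marrow as classical cells with high Ly6C and Ccr2. A part of them converts in the blood to nonclassical cells, which lose Ly6C, gain the chemokine receptor Cx3cr1, the integrin LFA-1 and CD43, and remain within the vessels. Survival of the nonclassical cells depends on the orphan nuclear receptor Nr4a1, and the transcription factors Cebpb and Klf2 and the CSF1 receptor are also known to sustain them. In the lung they patrol the dense capillary bed and take up particles and debris. Lamins A and C form a mesh under the inner nuclear membrane. They are scarce in many resting blood cells and abundant in tissue macrophages.

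The chosen cells numbered 335, 303, 345 and 299 in WT 1, WT 2, knockout 1 and knockout 2, with median depths of 6572 to 7500 UMIs and 10228499 UMIs together out of 97109691 in the 4 libraries. Of the 1282 cells, 297 also met a marker rule for classical monocytes (at least 3 of Ly6c2, Ccr2, F13a1, Vcan, Fn1 and Chil3, with Csf1r), and 151 also met the rule of a class other than monocytes. In 112 of those 151 the other class was the neutrophil (34, 33, 31 and 14 cells by library), and 14 had platelet, 12 dendritic cell and 11 alveolar macrophage genes. They were kept in the main results. A doublet score marked 19 of the 1282, and 3 shared their barcode with a cell of another library. Results that rest on cells of 2 classes are given with and without those 151 cells, a comparison added after the data were seen. 14.9% and 13.9% of the chosen cells met such a rule in WT 1 and 2, and 10.4% and 7.69% in knockout 1 and 2.

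The 6 genes used for the choice had higher levels in these cells than in any other class examined. Ace, which encodes angiotensin-converting enzyme, stood at 619 ± 71.5 CPM (SD, n = 4 libraries), against 21.8 ± 7.49 CPM in classical monocytes. Eno3, the muscle form of the glycolytic enzyme enolase, stood at 484 CPM, with 2.82 CPM in classical monocytes and 4.79 CPM in alveolar macrophages. Adgre4 (an adhesion receptor), Treml4 (a TREM-family receptor), Hfe (the hemochromatosis protein) and Cd300e (an activating receptor of monocytes) had 494, 434, 348 and 171 CPM. When each cell was thinned to 2000 UMIs, which left out 21 shallower cells, Ace was seen in 65% to 70.6% of cells per library and Cd300e in 23.1% to 34.5%. The unthinned shares reached 95.2% for Ace and 54.3% for Cd300e. In B cells, which should lack the 6 genes and had median depths of 3458 to 3974 UMIs, at most 1.95% of thinned cells had a UMI of any 1 of them.

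The 250 bases before the start site were searched for 4 binding motifs of factors known in monocytes, on both strands, in the RefSeq promoters (build GRCm38.p6) of these 6 genes and of Nr4a1. None of the 8 windows, which include 2 start sites of Ace, held the letters AAAGGTCA (bound by NR4A factors), GAGGAAGT (PU.1), TTGCGCAA (C/EBP) or GGGTGTGG (KLF). Among all 32851 promoter windows of that length, 1.34%, 2.44%, 0.164% and 3.20% held them, so a match was rare in any gene.

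The chosen cells were not uniform, and several genes that the rule did not use changed with the number of selecting genes seen in a cell. Of the 1282 cells, 455 had all 6 genes, 401 had 5, 242 had 4 and 184 had only 3, and 306 cells with 2 genes lay just outside the rule. Itgal, the alpha chain of LFA-1, averaged 447 CPM over the 4 libraries in cells with 3 genes, 768 with 4, 976 with 5 and 1265 with 6. Spn, which encodes CD43, went from 149.99 to 623 CPM over the same steps. Pou2f2, which encodes the transcription factor Oct-2, went from 704 to 1685 CPM. Nr4a1 went from 831 to 1464 CPM. The cells with 2 genes had 248 CPM of Itgal and 70.3 CPM of Spn, but they also held genes that alveolar macrophages express. Chil3, a chitinase-like protein, averaged 4835 CPM in them (8421 CPM in WT 1) against 1356 CPM at 3 genes, and Cd9, a tetraspanin, 1282 against 409 CPM. The part of such cells in the step from 2 to 3 genes was not tested. Genes of classical monocytes ran the other way. Among cells inside the rule, Ly6c2 went from 756 CPM with 3 genes to 115 CPM with 6, Ccr2 from 698 to 161 CPM, and F13a1, a coagulation factor subunit, from 207 to 13.7 CPM. The share of cells that also met the classical rule was 50.5%, 34.7%, 19.95% and 8.79% at 3, 4, 5 and 6 genes. Median depth was 10645.5 UMIs at 2 genes, 8416 at 3 and 6534 at 6, so the cells with the most selecting genes were not the deepest.

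**Figure D1:**
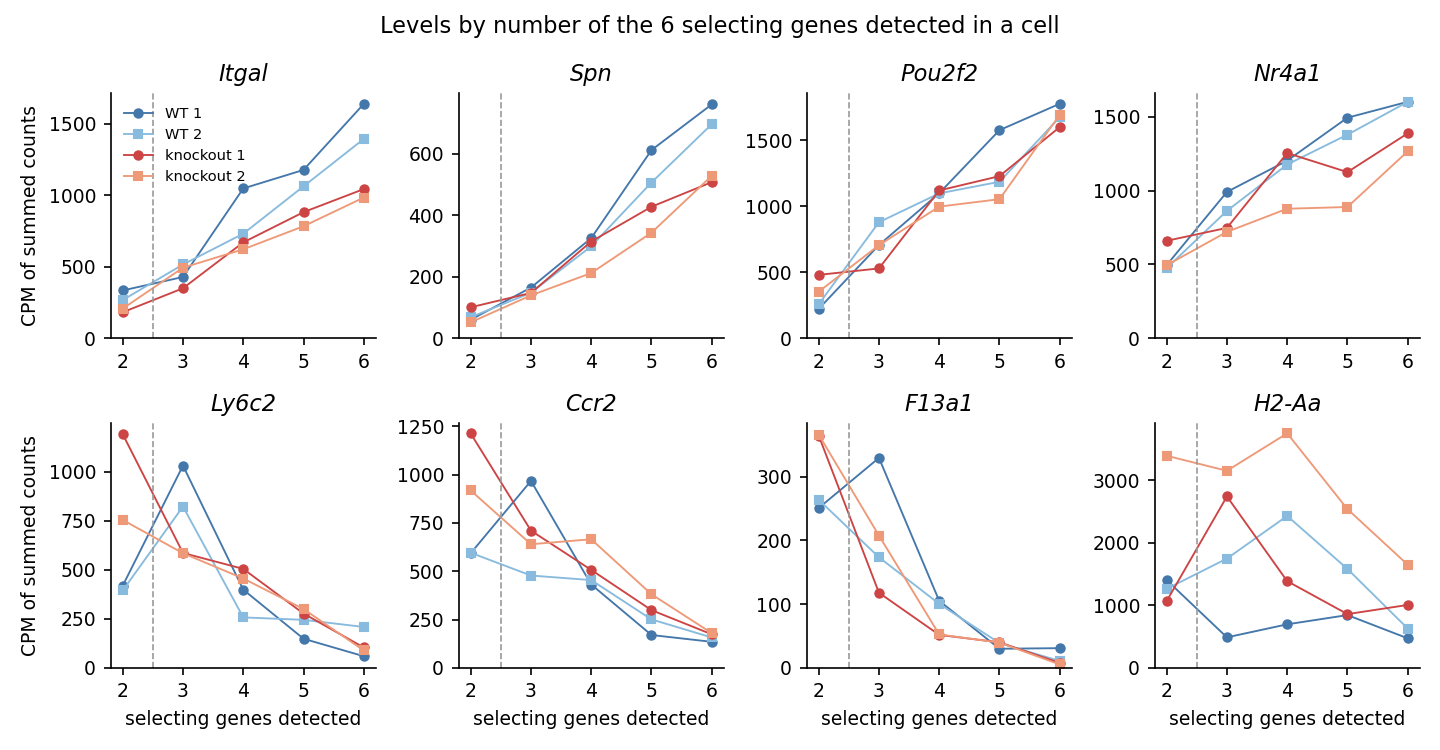
Level of 8 genes outside the rule (CPM of summed counts, vertical axes) by the number of selecting genes seen in a cell (horizontal axes), with 1 line per library; cells right of the dashed line met the rule. Itgal, Spn, Pou2f2 and Nr4a1 were higher at 6 genes than at 3 in each library, and Ly6c2, Ccr2 and F13a1 were lower. H2-Aa was also lower at 6 than at 3 in each library, by little in WT 1 (473 against 488 CPM). In WT 2, knockout 1 and knockout 2 it had 630, 1007 and 1651 CPM at 6 against 1749, 2744 and 3155 CPM at 3. It did not fall at every step, and it lay highest in knockout 2.

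Cells that met both monocyte rules held an intermediate mix. In the 297 such cells Ly6c2 averaged 800.2 CPM, Spn 244 CPM and Cd300e 29.5 CPM, and in the other 985 these were 66.8, 539.7 and 239 CPM. Nr4a1 differed less, at 1034 and 1321 CPM. Their median depths were 10067 and 6013 UMIs, and a deeper cell meets a second rule more easily. Ly6c2 was used to define the overlap, and its values only describe it.

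Set against the 689 classical monocytes of the same libraries, the chosen cells had the gene profile that their label implies. Of 24 further genes listed as typical of nonclassical monocytes, 23 reached 20 CPM in either class, and 22 of the 23 were higher in nonclassical cells in each library. Across all 5687 such genes, 36.6% were higher in each library and 24.6% were lower. The exception was Nap1l1, a histone chaperone, with 197 ± 14.1 CPM against 190.3 ± 8.08 CPM. Of 12 listed classical genes that the rules did not use, 10 were lower in each library, and their median log2 ratio was -1.15. The lists were drawn up with these data known, and the cells were picked by related genes, so the counts describe the cells and test nothing.

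The genes that stood highest above classical monocytes, in the library where they differed least, included carriers and sensors of lipid. Slc12a2, a sodium-potassium-chloride cotransporter, had 201 ± 32.3 CPM against 1.84 ± 0.892 CPM, log2 ratios of 4.66 to 5.15 over the 4 libraries. Fabp4, a fatty acid-binding protein, had 244 ± 71.3 CPM against 2.72 ± 2.05 CPM, and the ratio was 3.93 to 5.77. Cd36, a scavenger receptor that takes up fatty acids, had 225 ± 9.80 CPM against 10.1 ± 4.35 CPM. Pparg, the nuclear receptor that controls Fabp4 and Cd36 in other cells, had 89.1 ± 8.17 CPM against 4.92 ± 0.977 CPM. These 3 genes also mark alveolar macrophages, and without the 151 cells of a second class their smallest ratios were 3.90, 3.52 and 3.31. Of the cholesterol and lipid genes listed, 16 of 23 were higher in each library, 3 were lower, and the median ratio was 0.39. Across all 5687 genes at 20 CPM or more, 36.6% were higher in each library and 24.6% lower.

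Survival genes of the Bcl2 family formed another group. Bcl2 had 261 ± 26.9 CPM against 39.4 ± 16.3 CPM, and Bcl2a1a, Bcl2a1b and Bcl2a1d had ratios of 2.85 to 3.58, 2.41 to 3.75 and 2.40 to 3.10. The Bcl2a1 genes are near-identical copies, and their reads could have been split between them. Mcl1, a related survival gene, lay at 949 CPM against 1129 CPM, on the other side. Among the pro-death members, Bak1 had ratios of 0.72 to 1.31 and Bcl2l11 of -0.48 to -0.21.

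Of 21 adhesion and migration genes listed, 15 were higher in each library and 4 were lower, with a median log2 ratio of 0.66. The share of all genes at that level was 36.6% higher and 24.6% lower. Itgal had 961 ± 202 CPM against 179 ± 25.5 CPM, and its partner chain Itgb2 756 ± 73.5 CPM against 378 ± 21.4 CPM. S1pr5, a sphingosine phosphate receptor that guides lymphocytes and monocytes out of the marrow, had 116 ± 8.53 CPM against 9.42 ± 2.60 CPM. Cxcr4, the receptor for CXCL12, had ratios of 1.43 to 1.69, and Cx3cr1 of 0.66 to 0.88. Of 18 Fc and complement receptor genes 8 were higher and 6 lower, with a median of 0.02. Fcgr4, an activating receptor for IgG, had 323 ± 43.1 CPM against 27.6 ± 9.35 CPM, and Cd274, which encodes the checkpoint ligand PD-L1, 98.2 ± 10.2 CPM against 9.001 ± 3.96 CPM.

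Among the transcription factors, Tcf7l2, which acts in the Wnt pathway, had the largest ratio of those listed in each of the 4 libraries, at 126 ± 42.7 CPM against 6.27 ± 2.29 CPM. Pou2f2 (1.43 to 1.72), Ets1 (1.73 to 2.80), Bcl6 (1.09 to 1.53), Nr4a1 (0.96 to 1.08) and Mef2c (0.74 to 1.30) were higher in each library on the log2 scale. The relatives Nr4a2 (-0.64 to -0.33) and Cebpa (-1.27 to -1.12), Cebpd (-1.02 to -0.83) and Irf4 (-1.84 to -0.87) were lower. Cebpb, one of the factors known to sustain nonclassical cells, lay at 0.34 to 0.67 and Klf2 at 0.073 to 0.57, so both were only slightly higher.

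Genes switched on by type I interferon were lower in nonclassical than in classical monocytes. Of the 31 such genes measured at 20 CPM or more, 30 were lower in each library, with a median log2 ratio of -0.88. Isg15, a ubiquitin-like modifier, had 95.1 ± 17 CPM against 255 ± 60.02 CPM. Irf7, the factor that amplifies the interferon response, had 164 ± 32.3 CPM against 310.2 ± 24.3 CPM. The exception was Ly6e, a surface protein of the Ly6 family, with log2 ratios of 0.21 to 0.34. In cells thinned to 2000 UMIs, the median cell held 16 to 18 UMIs of the list in nonclassical monocytes and 23 to 25 in classical ones, so the ranges over libraries did not overlap. Nuclear genes of oxidative phosphorylation were lower as well, 24 of 30 in each library, as were 16 of 26 listed ribosomal protein genes. For these lists and the interferon list, the share of all 5687 genes at that level that were lower in each library was 24.6%.

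**Figure D2:**
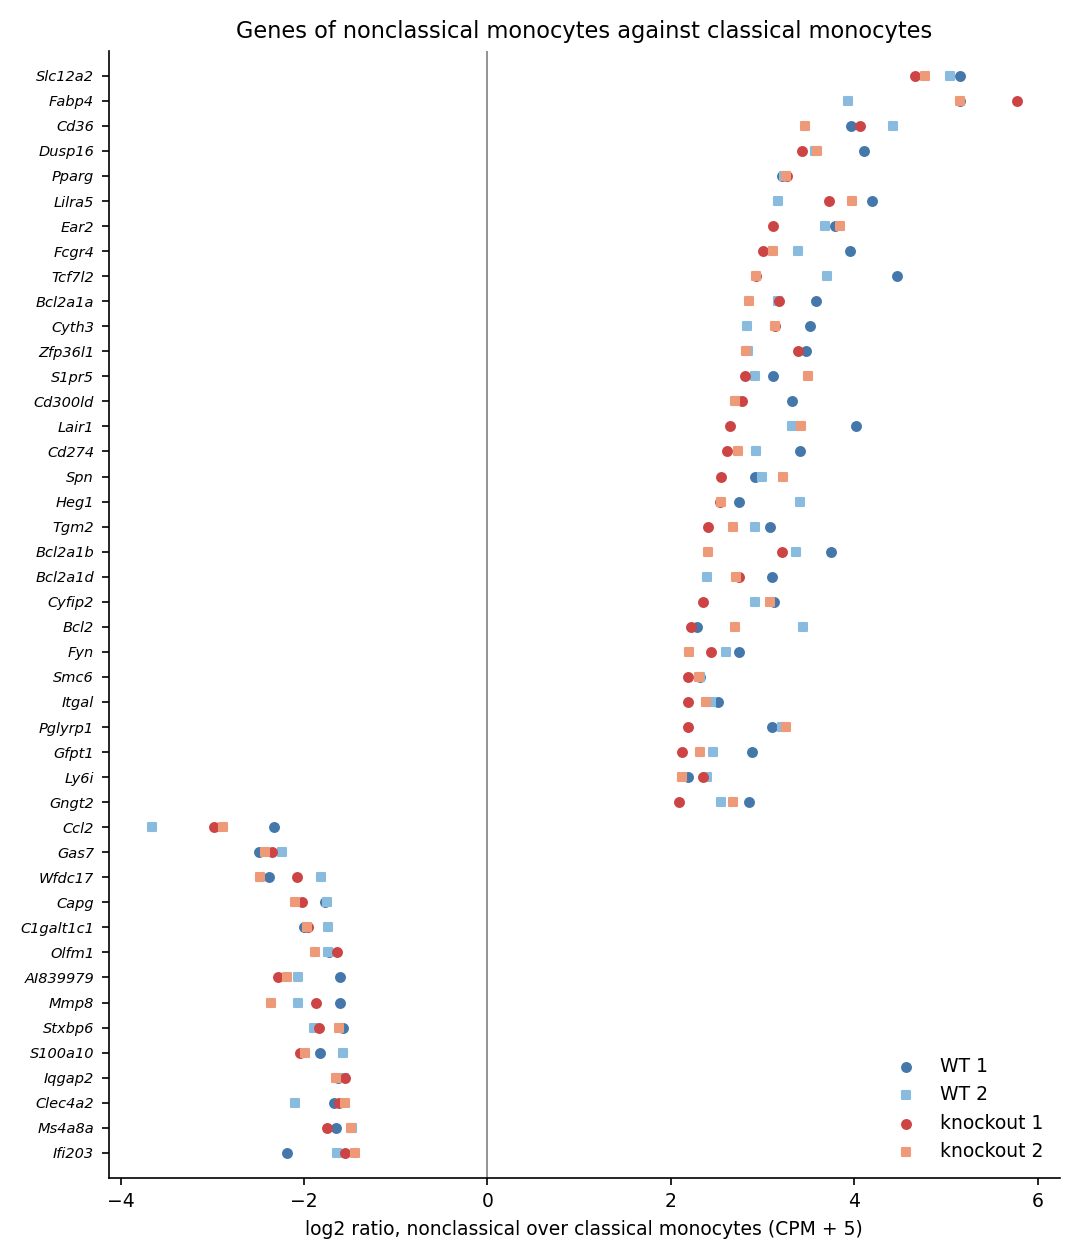
Log2 ratio of nonclassical over classical monocytes within each library (horizontal axis, CPM plus 5) for the 30 genes with the highest smallest ratio and 14 with the lowest largest ratio, leaving out genes used to choose the cells. The symbols are the 4 libraries, and the ratio of Tcf7l2 is higher in both WT libraries than in both knockout libraries.

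Class II antigen presentation genes set a range among the cells rather than a common level. After thinning, the median nonclassical cell held 1, 3, 2 and 6 UMIs of H2-Aa, H2-Ab1, H2-Eb1 and Cd74 together in WT 1, WT 2, knockout 1 and knockout 2, and the highest cell held 152, 143, 163 and 212. At least 10 such UMIs of 2000 were found in 10.5%, 33.3%, 24.6% and 43.1% of the cells. Without thinning the shares were 23%, 51.5%, 38% and 58.5%. The second library of each genotype had the higher share, and the genotypes overlapped, with means of 21.9% ± 16.1 (SD, n = 2) and 33.8% ± 13.1 (exact permutation test, two-sided, p = 0.667; adjusted over the 3 shares tested, 0.667). The smallest p that 2 against 2 libraries allow is 0.33. Classical monocytes ran in the same order of libraries, with 9.86%, 33.9%, 10.1% and 35.8%, but there knockout 1 lay near WT 1. B cells, which make class II themselves, held a median of 51 to 63 UMIs per 2000, and free RNA from them was not removed here.

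Mitotic genes were nearly absent: 3 of the 1282 cells held 2 or more of Mki67, Top2a, Cdk1, Birc5 and Ccnb2, 5 genes of dividing cells. The 112 cells with neutrophil genes averaged 11513 CPM of S100a8, a calcium-binding protein that is abundant in neutrophils, against 32.1 CPM in the 1131 cells that met no second rule. They kept 509 CPM of Ace and 423 CPM of Eno3. S100a8 is in the rule that picked them, so its values only describe the choice. The 6 neutrophil markers summed to 5854 and 4093 CPM in WT 1 and 2 against 3270.3 and 1206 CPM in knockout 1 and 2, and to 187 to 220.3 CPM without cells of a second class. None of the 6 was at 0 in the chosen cells. The 6 platelet markers summed to 49.7 and 40.4 CPM in WT 1 and 2 against 7.36 and 7.41 CPM in knockout 1 and 2, higher in both WT libraries, and to 0 to 5.18 CPM without those cells. Markers of alveolar macrophages, 8 genes with none at 0, summed to 645 to 999 CPM, and to 266 to 643 CPM without those cells. The 5 markers of C1q-high macrophages summed to 2434 and 2846 CPM in WT 1 and 2 against 3759 and 3287 CPM in knockout 1 and 2. That sum did not fall without those cells, at 2648 to 3958 CPM. Of the 5 genes, 2 were tested between the genotypes and none passed. The 8 B cell markers summed to 229 to 253 CPM with Cd79a at 0 by the rule, and the 6 T cell markers to 9.46 to 26 CPM with Cd3e at 0 by the rule. The 151 cells were picked by marker genes of the same classes, so lower sums without them follow in part from the choice. The part of these other cells in the results was not tested beyond leaving out the 151 cells.

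**Figure D3:**
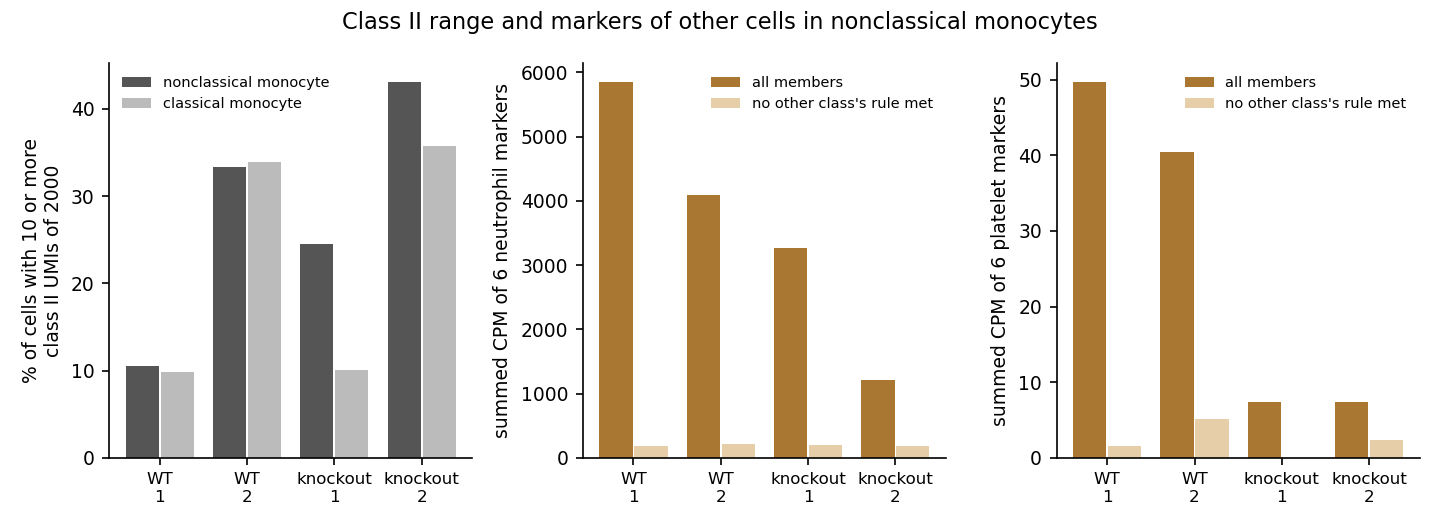
Left, percent of nonclassical (dark) and classical (light) monocytes with 10 or more class II UMIs of 2000 per library; middle and right, summed CPM of 6 neutrophil and 6 platelet markers in all chosen nonclassical monocytes (dark) and in those that met no second class's rule (light). The class II share runs from 10.5% in WT 1 to 43.1% in knockout 2, and both marker sums are highest in WT 1 in the dark bars. The light bars stand at 187 to 220.3 CPM for neutrophil and 0 to 5.18 CPM for platelet markers. The cells left out there were picked by marker genes of other classes, so lower sums follow in part from the choice.

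The share of nonclassical monocytes overlapped between the genotypes when all 1282 cells were counted, and did not overlap when cells of a second class were left out. They made up 8.50% of cells in WT 1 (exact 95% interval 7.65 to 9.41%), 7.81% in WT 2 (6.98 to 8.70%), 9.15% in knockout 1 (8.25 to 10.1%) and 8.33% in knockout 2 (7.44 to 9.28%), intervals that cover counting error only. The means were 8.15% ± 0.489 in WT and 8.74% ± 0.585 in knockout (SD, n = 2; exact permutation test, two-sided, p = 0.667). Without the 151 cells of a second class the shares were 7.23% and 6.73% in WT against 8.20% and 7.69% in knockout, a difference of 0.963 percentage points with both knockout libraries above both WT libraries (exact permutation test, two-sided, p = 0.33, the smallest possible here). Among monocytes of both kinds, nonclassical cells were 70.1% and 61.8% in WT against 67.1% and 61.1% in knockout, with means of 65.96% ± 5.83 and 64.1% ± 4.23 (exact permutation p = 0.667). Cells that met both monocyte rules were counted as nonclassical only. They were 17.3% and 26.1% of the chosen cells in WT 1 and 2, and 24.3% and 25.4% in knockout 1 and 2. The share among monocytes depends on that order of the rules. The second library of each genotype was lower in both shares. In an edgeR fit of cell numbers over 12 classes, the log2 fold change was 0.10 ± 0.26 (SE), with an adjusted p of 0.920. In the same fit alveolar macrophages fell by 2.39 on the log2 scale (adjusted p = 8.84e-07), and a share of all cells rises when another class falls.

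Lmna itself was scarce in these cells. It had 35, 22, 15 and 14 UMIs in WT 1, WT 2, knockout 1 and knockout 2, or 12.9 and 9.24 CPM in WT 1 and 2 against 5.49 and 5.96 CPM in knockout 1 and 2. Both knockout libraries lay below both WT libraries, and the difference did not pass the test (log2 fold change -0.96 ± 0.36 (SE), edgeR adjusted p = 0.345). Such a separation, in either direction, was found in 42.1% of all genes tested. Lmna lies on chromosome 3 from 88480147 to 88509956, minus strand, in mm10. The labels do not say which exons are flanked by loxP, and counts from the 3-prime end may lie outside the deleted part, so this gene is a weak check of the labels. In alveolar macrophages of the same libraries, where it is abundant, it fell from 348 to 67.1 CPM (log2 fold change -2.38 ± 0.18, edgeR adjusted p = 9.51e-07). Lmnb1, which encodes lamin B1, had 69.2 and 53.7 CPM in WT against 62.9 and 39.6 CPM in knockout in nonclassical monocytes (-0.26 ± 0.23, adjusted p = 0.762), and Lmnb2 had 5 to 10 UMIs per library and was not tested. None of 26 tested genes of the lamins and nuclear envelope passed the test, against 0.967% of all genes tested.

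Of 9105 genes tested between the genotypes with edgeR's quasi-likelihood test, 23 were higher and 65 lower in knockout nonclassical monocytes at a Benjamini-Hochberg adjusted p under 0.05. That is 88 genes, 0.967% of those tested (0.253% higher, 0.714% lower), and the median log2 fold change of all genes tested was -0.0027. Log2 fold changes are knockout minus WT, with the standard error of the fit. Without the 151 cells of a second class 79 genes passed, 55 of them among the 88. The number of calls rose without knockout 1 or knockout 2 and fell without WT 1 or WT 2. Most of the 88 genes did not pass without WT 1 or without WT 2. Such fits leave 1 library in a genotype. With DESeq2 47 genes passed, and among cells with few class II UMIs only 33.

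**Figure D4:**
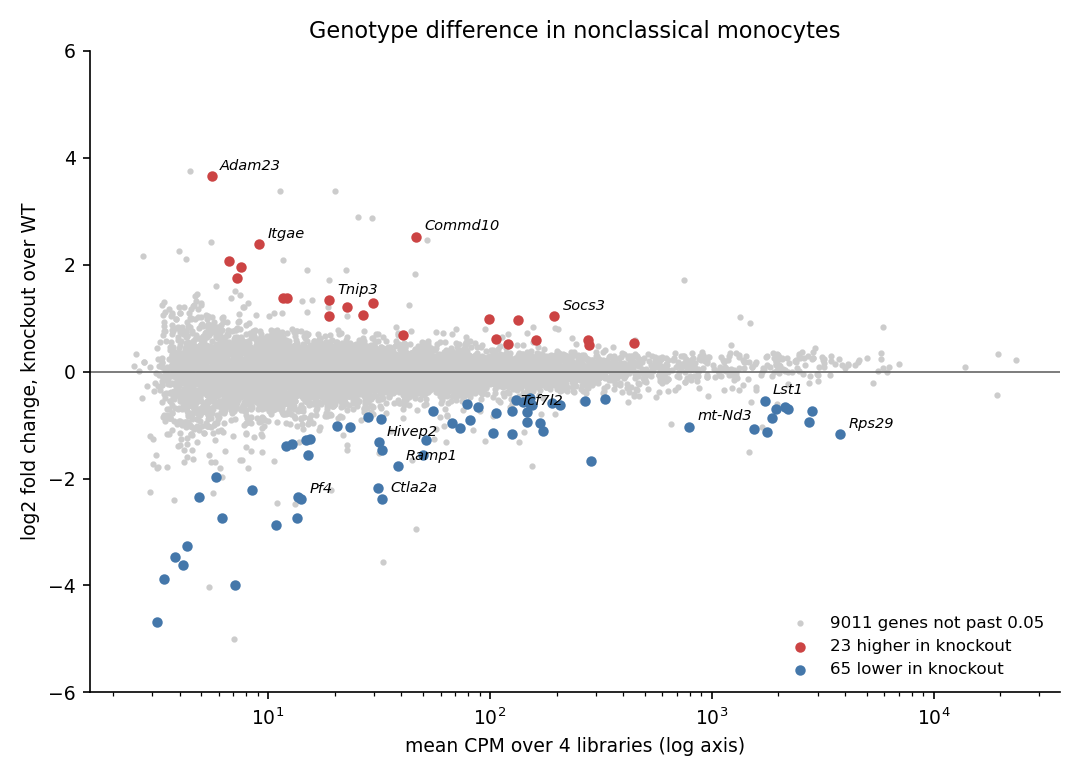
Log2 fold change of knockout over WT (vertical axis) against mean CPM over the 4 libraries (horizontal log axis) for the genes tested in nonclassical monocytes, without the 6 selecting genes. Red points are the 23 genes that passed upward and blue points the 65 that passed downward; Commd10 is the highest red point above 20 CPM, and Rps29, Rps27 and Rps28 are among the lower genes at high levels.

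Commd10 rose most among the genes that passed the test at 20 CPM or more. It encodes a COMM domain protein of the complex that returns receptors from endosomes to the cell surface. It had 14.7 and 12.6 CPM in WT 1 and 2 against 77.2 and 81.3 CPM in knockout 1 and 2, a 5.76-fold rise (log2 fold change 2.52 ± 0.17 (SE), adjusted p = 8.44e-08), and the groups were far apart. It passed in each of the 17 other settings tried. In classical monocytes it rose too (log2 fold change 2.60 ± 0.21, adjusted p = 8.41e-06). Commd10 lies on chromosome 18 and gives its name to a widely used Vav1-iCre strain, whose transgene sits in that locus. The labels do not say which Vav1-cre line was used, and here Cre and knockout cannot be told apart.

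Socs3, which encodes a feedback inhibitor of cytokine signalling, rose as well. It had 116 and 140.2 CPM in WT 1 and 2 against 299 and 226 CPM in knockout 1 and 2 (log2 fold change 1.04 ± 0.15 (SE), adjusted p = 0.00448), with both knockout libraries above both WT libraries. Pltp, a phospholipid transfer protein, had 77 and 105 CPM in WT 1 and 2 against 185 and 169 CPM in knockout 1 and 2 (0.97 ± 0.14, adjusted p = 0.00195). Tmem176a, a transmembrane protein of myeloid cells, had 53.4 and 80.6 CPM in WT 1 and 2 against 135 and 127 CPM in knockout 1 and 2 (0.98 ± 0.17, adjusted p = 0.0174). The fitted rises were 2.05-fold, 1.96-fold and 1.97-fold. In none of the 3 genes did the groups overlap. That held for all 88 genes that passed and for 42.1% of all genes tested, so it adds nothing to the test.

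Of 28 tested NF-kB genes listed, Traf1 rose and Tnfaip2 fell. Traf1, an adaptor of TNF receptors, had 131 and 126 CPM in WT against 203 and 186 CPM in knockout (0.60 ± 0.12, adjusted p = 0.0132). Tnip3, which binds the NF-kB inhibitor A20, had 12.5 and 8.82 CPM in WT against 32.9 and 21.3 CPM in knockout (1.34 ± 0.27, adjusted p = 0.0178), and Ier5, an immediate early gene, 388 and 341 CPM in WT against 558 and 494 CPM in knockout (0.53 ± 0.12, adjusted p = 0.0293). Bcl2a1b, a survival gene driven by NF-kB, had 216 and 228 CPM in WT against 377 and 287 CPM in knockout (0.59 ± 0.13, adjusted p = 0.0334), with the reserve on its copies given above. Tnip3, Ier5 and Bcl2a1b are not members of the NF-kB list. Of its 28 tested genes 21 had a positive log2 fold change, with a median of 0.24. Over all genes tested 4511 of 9105 were positive, and 0.967% passed in either direction. Tnfaip2, a gene induced by TNF, had 267 and 207 CPM in WT against 117 and 104 CPM in knockout, and its fold change shrank from -1.10 to -0.35 without cells of a second class (adjusted p = 0.490). Neutrophil marker sums moved with it, as given above.

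Other genes rose at lower levels. Ifi205, an interferon-inducible DNA-sensing family member, had 10.3 and 17.2 CPM in WT against 29.99 and 33.2 CPM in knockout, and without cells of a second class its adjusted p was 0.389. Ms4a4c, a membrane protein of the interferon list, had 220.2 and 246 CPM in WT against 310.1 and 349 CPM in knockout (0.50 ± 0.11, adjusted p = 0.0345). Klrk1, which encodes the receptor NKG2D, had 11.4 and 13.4 CPM in WT against 24.5 and 26.4 CPM in knockout, and Ldhb, a lactate dehydrogenase chain, 13.3 and 21.8 CPM in WT against 38 and 34.5 CPM in knockout. Ifi27 and Plekho1 rose to 49.8 and 129 CPM from 31.1 and 84.9 CPM. Without cells of a second class Tnip3, Ier5 and Plekho1 no longer passed, with adjusted p of 0.109, 0.0712 and 0.0871.

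Ramp1 fell more than any other gene at 20 CPM or more that also passed without cells of a second class. It encodes a subunit of the receptor for the neuropeptide CGRP. It had 64.1 and 54.6 CPM in WT 1 and 2 against 14.3 and 20.9 CPM in knockout 1 and 2 (log2 fold change -1.77 ± 0.19 (SE), adjusted p = 5.78e-05), and passed in each of the 17 other settings. It fell in classical monocytes (log2 fold change -0.97, adjusted p = 0.00749) and in alveolar macrophages (-1.20, 6.61e-04) of these libraries too. Hivep2, a zinc finger transcription factor, had 49.3 and 40.7 CPM in WT 1 and 2 against 18.6 and 17.4 CPM in knockout 1 and 2 (-1.32 ± 0.19, adjusted p = 0.00101). L1cam, a cell adhesion molecule, had 114 and 83.6 CPM in WT 1 and 2 against 45.3 and 50.6 CPM in knockout 1 and 2 (-1.05 ± 0.16, adjusted p = 0.00225). In these 3 genes no knockout library reached a WT library, and none of the 88 genes that passed had overlapping groups. Of all genes tested, 42.1% were separated in this way, in either direction.

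Regulators, an enzyme and surface proteins fell by less. Tcf7l2, the Wnt pathway factor that stood out against classical monocytes, had 178 and 137 CPM in WT 1 and 2 against 101 and 89 CPM in knockout 1 and 2 (log2 fold change -0.73 ± 0.14 (SE), adjusted p = 0.0132). Tle4, a corepressor, fell from 69 to 41.8 CPM, and Hes1, a Notch target that represses transcription, from 169 to 114 CPM. Thbd, thrombomodulin, which curbs clotting on the vessel wall, had 118 and 153 CPM in WT against 77.2 and 80.4 CPM in knockout (-0.78 ± 0.14, adjusted p = 0.00730). Idh1, the cytosolic isocitrate dehydrogenase, had 84 and 95.3 CPM in WT against 48.3 and 43.8 CPM in knockout (-0.96 ± 0.14, adjusted p = 0.00138). Lst1, a leukocyte transcript that is high in nonclassical cells, had 2085 and 2023 CPM in WT against 1313 and 1509 CPM in knockout (-0.54 ± 0.13, adjusted p = 0.0490), near the threshold. With the transcript length trend taken out, Lst1 had an adjusted p of 0.103.

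**Figure D5:**
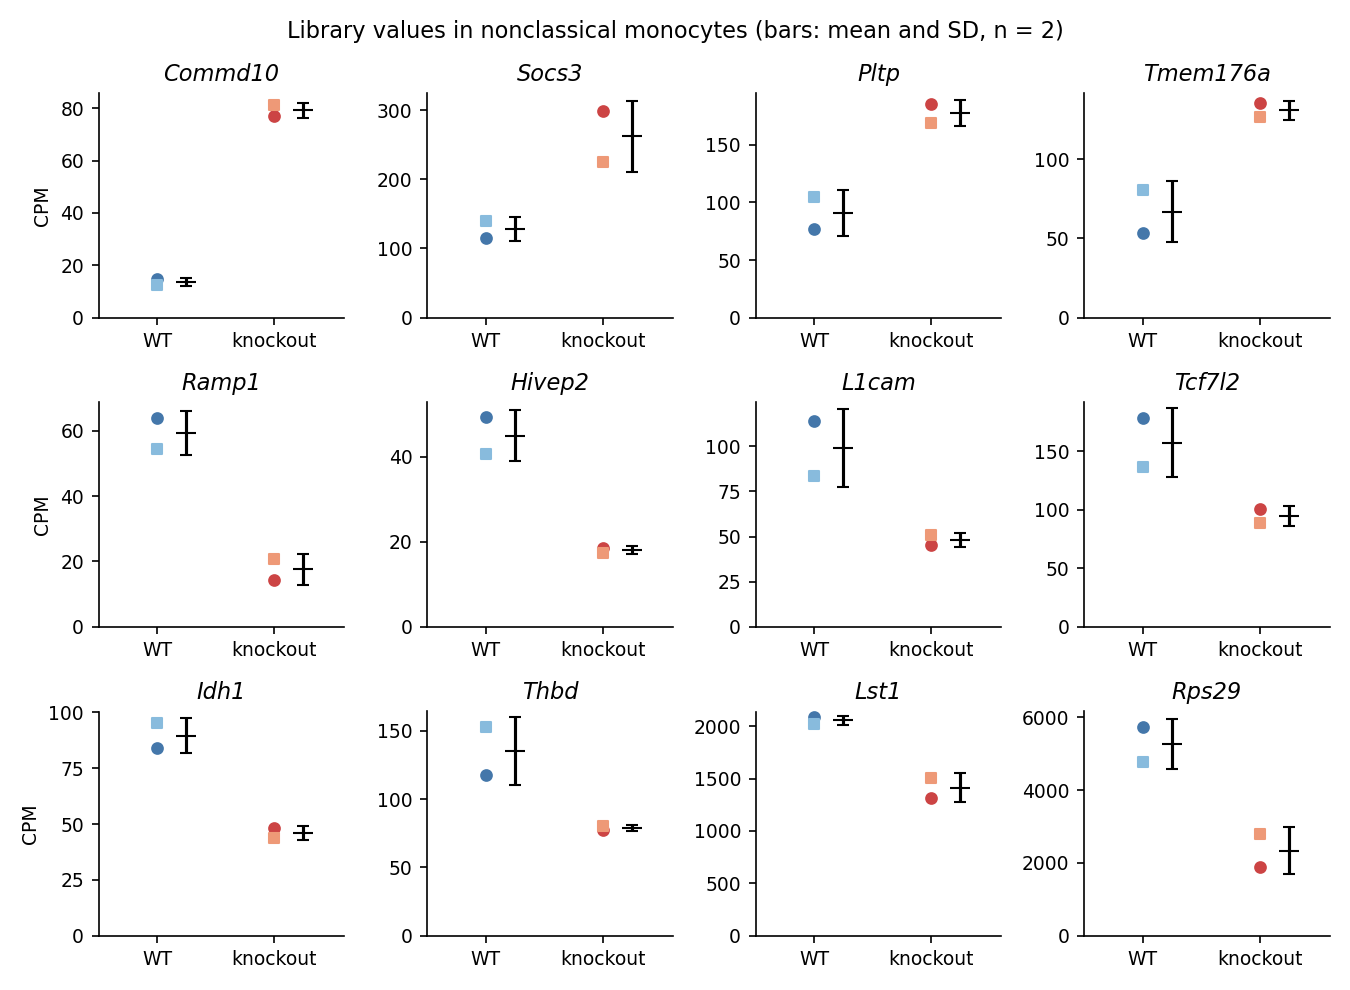
CPM of 12 genes that passed the test, with 1 point per library (circle, first library of the genotype; square, the second) and bars for the mean and SD of 2 libraries; every axis starts at 0. No panel has overlapping genotypes, which held for all 88 genes that passed and for 42.1% of all genes tested.

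Short transcripts made up much of the lower group. Of the 65 genes that fell, 27 (41.5%) had a median annotated transcript under 700 bases, against 730 (8.02%) of all genes tested, and their median length was 835 against 2070 bases. Among the 23 that rose, 3 were that short. Rps29, a small ribosomal subunit protein, had 5744 and 4780.4 CPM in WT 1 and 2 against 1881 and 2789 CPM in knockout 1 and 2 (log2 fold change -1.17 ± 0.19 (SE), adjusted p = 0.0132). Rps28 (-1.12), Rpl38 (-1.08), Rps21 (-0.86), Rpl37a (-0.74), Rpl39 (-0.67) and Rpl3l (-1.46) also fell. Copies of ribosomal genes are many, so their reads are uncertain.

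The fall was not shared by most of the ribosomal genes listed. Of 26 listed ribosomal protein genes, Rps27 and Rps29 fell, none rose, and 21 had a positive log2 fold change, with a median of 0.21. Over all genes tested 4511 of 9105 were positive. Rps28, Rpl38, Rps21, Rpl37a, Rpl39 and Rpl3l are not among the fallen genes of that list. The list thus does not cover all ribosomal genes, and its counts do not measure the fall over all of them. From the mitochondrial genome, mt-Nd3 (1171 and 955 CPM in WT against 476 and 566 CPM in knockout; -1.03 ± 0.13, adjusted p = 3.58e-04), mt-Nd4l and mt-Atp8 fell, 3 of 13 genes, and the median of the 13 was -0.041. These 3 are short genes even for that genome, and over all genes tested 0.714% fell. When each library's trend with transcript length was taken out, a setting added after the data were seen, 77 genes passed and 71 were among the 88. Rps29 and mt-Nd3 still passed (adjusted p = 0.0315 and 0.00246), and mt-Nd4l and mt-Atp8 did not (0.0519 and 0.0726). Rps28 fell by 1.41 in classical monocytes and by 1.11 in alveolar macrophages of the same libraries on the log2 scale. The part of transcript length in the other lower genes was not tested.

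Another set of lower genes was seen mostly in cells of a second class. Pf4, the platelet factor 4, had 26.1 and 21.4 CPM in WT 1 and 2 against 5.12 and 3.83 CPM in knockout 1 and 2 (log2 fold change -2.39 ± 0.30 (SE), adjusted p = 3.02e-04). Gng11 and Nrgn, which platelets also carry, had 22.5 and 23.5 CPM in WT against 6.22 and 2.55 CPM in knockout and 31.7 and 15.5 CPM in WT against 4.02 and 2.98 CPM in knockout. Ctla2a, a protease inhibitor, had 62.2 and 47.9 CPM in WT against 12.4 and 8.51 CPM in knockout. Wfdc21, Fabp1 and Cidec, which alveolar macrophages express, stood at 51.3, 19.1 and 7.70 CPM in WT and 11.4, 2.71 and 0.608 CPM in knockout. Without the 151 cells of a second class, none of these 7 genes reached the level needed for the test. Pf4, Fabp1 and Cidec are in the rules that picked those cells, so their drop follows at least in part from the choice. Gng11, Nrgn, Ctla2a and Wfdc21 are in none of the rules. The WT libraries held 12 of the 14 chosen cells with platelet genes, and 8 of the 11 with alveolar macrophage genes. Among the genes that rose, Xcr1, Itgae, Adam23 and Gatm lay under 20 CPM, and they too were not tested without those cells. Xcr1 and Itgae are markers of a type of dendritic cell, whose 6 markers summed to 34.3 and 21.5 CPM in WT 1 and 2 against 57.4 and 56.4 CPM in knockout 1 and 2 in all chosen cells and to 6.98 to 18.3 CPM without the 151. Both genes are in the dendritic cell rule, so their drop also follows at least in part from the choice.

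The listed markers of nonclassical monocytes were then read between the genotypes. Of the 24 tested outside the rule, Lst1 fell and 23 did not pass, against 0.967% of all genes that passed. Of the 24, 18 had a negative log2 fold change, and the median was -0.12. Groups that did not overlap, in either direction, were found in 42.1% of all genes tested. Nr4a1 had 1377 and 1355 CPM in WT 1 and 2 against 1162 and 1047 CPM in knockout 1 and 2 (log2 fold change -0.31 ± 0.12 (SE), adjusted p = 0.378), and both knockout libraries lay below both WT libraries without passing the test. Spn had 542 and 480.4 CPM in WT against 384 and 379.6 CPM in knockout (-0.42 ± 0.11, adjusted p = 0.0971) and Itgal 1193 and 1039 CPM in WT against 802 and 824 CPM in knockout (-0.46 ± 0.12, adjusted p = 0.0971). For both genes the groups did not overlap, and the adjusted p ranged over the alternatives from 0.0205 to 0.592 and from 0.0114 to 0.514. Cx3cr1 had 582 and 496 CPM in WT against 451 and 489 CPM in knockout (-0.20 ± 0.12, adjusted p = 0.597). Csf1r, Fcgr4, Cebpb, Klf2, Klf4 and Pou2f2 had log2 fold changes of 0.0047, -0.0099, 0.06, -0.072, -0.15 and -0.12, with adjusted p from 0.713 to 0.995. Of the classical monocyte genes, 1 of 18 tested passed (Ms4a4c, higher), and Ly6c2 and Ccr2 stood at -0.062 and 0.28 (adjusted p = 0.889 and 0.364).

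The 6 selecting genes were read as levels only. Ace had 700.04 and 634 CPM in WT 1 and 2 against 545 and 609 CPM in knockout 1 and 2, Cd300e 219 and 162 CPM in WT 1 and 2 against 139.7 and 166 CPM in knockout 1 and 2 and Adgre4 483 and 501 CPM in WT 1 and 2 against 494 and 512 CPM in knockout 1 and 2. Each cell had to carry 3 of the 6, so their totals cannot fall freely in either genotype.

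Inflammatory and stress lists were described by counts. Over all 9105 genes tested, 0.253% passed as higher and 0.714% as lower, and 4511 had a positive log2 fold change. Of 28 immediate early genes tested, Ier5 and Socs3 rose and none fell, with a median log2 fold change of 0.21. Of 31 type I interferon genes, Ms4a4c rose, 24 had a positive log2 fold change and the median was 0.30. Without cells of a second class 3 of the list passed, with a median of 0.38, against 79 of all 8561 genes tested there. Irf7 had 135 and 142 CPM in WT against 205 and 178 CPM in knockout (0.47 ± 0.12, adjusted p = 0.0713), short of the threshold. None of 15 interferon gamma genes passed (median 0.31), nor of 14 class I presentation genes (0.16). All 11 class II presentation genes were positive, with a median of 0.84, and none passed, which goes with the library order of the class II share above. The smallest adjusted p among the 11 was 0.447.

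None of 24 p53 target genes passed, and their median was -0.027, close to that of all genes. Without cells of a second class 1 of them passed, with a median of 0.030, against 79 of all 8561 genes tested there. Bbc3, Bax and Pmaip1, which promote cell death, had log2 fold changes of 0.36, 0.28 and 0.26 (adjusted p = 0.382, 0.382 and 0.532). Of 15 ESCRT-III membrane repair genes and 36 lysosome genes none passed, with medians of 0.11 and 0.069. Of 21 genes of cytosolic DNA sensing and DNA damage, Ifi205 rose and the median was 0.011. Of 33 actin and SRF target genes none passed (median 0.0033). Of 18 Fc and complement receptor genes none passed, and Fcgr2b, the inhibitory IgG receptor, came nearest with 119 and 146 CPM in WT against 177 and 211 CPM in knockout (0.55 ± 0.13, adjusted p = 0.0506). Adjusted p values come from edgeR's quasi-likelihood test, apart from the ranges over alternatives for Spn and Itgal, which include DESeq2 and limma.

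The knockout effect in nonclassical monocytes was also set against that in classical monocytes and in alveolar macrophages, with the library as a block. Against classical monocytes 4 of 9283 genes differed (0.0431%), 1 with a higher and 3 with a lower value in nonclassical cells. Pltp, which rose in nonclassical cells, had 37.1 and 40.9 CPM in WT 1 and 2 against 40.9 and 24.3 CPM in knockout 1 and 2 in classical monocytes. The difference between the effects was 1.25 ± 0.22 on the log2 scale (adjusted p = 0.0270). Hebp1, a heme-binding protein whose fragment attracts monocytes, had 20.3 and 11.3 CPM in WT 1 and 2 against 114 and 62.6 CPM in knockout 1 and 2 in nonclassical cells, and 4.80 and 8.06 CPM in WT 1 and 2 against 176 and 101 CPM in knockout 1 and 2 in classical ones. It was higher in both knockout libraries in both classes, with log2 fold changes of 2.47 (adjusted p = 0.377) and 4.36 (adjusted p = 0.0228), and the difference was -1.87 ± 0.34 (adjusted p = 0.0270). Cd7 and Cxcl9 also passed and lay under 10 CPM in nonclassical cells. With at least 10 counts required in each library none of 7403 genes passed (490 at an unadjusted p under 0.05 in edgeR). Without cells of a second class 9 did, 8 higher and 1 lower, and only 1 of them was among the 4. Without doublets 1 gene passed, and it was among the 4. Most of the 4 genes were thus lost in each of these settings.

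Against alveolar macrophages 71 of 9918 genes differed (0.716%), 25 with a higher and 46 with a lower value in nonclassical monocytes. Within alveolar macrophages themselves 339 of 9247 genes passed, with 225 and 233 WT and 51 and 31 knockout cells by library. Without cells of a second class 68 genes differed between the 2 classes, 45 with a higher and 23 with a lower value. Phlda3, a p53 target, had 19.5 and 16 CPM in WT against 20.5 and 20.004 CPM in knockout in nonclassical monocytes and 37.8 and 30.9 CPM in WT 1 and 2 against 190.1 and 152 CPM in knockout 1 and 2 in alveolar macrophages, a difference of -2.12 ± 0.27 (adjusted p = 8.11e-04). The immediate early genes Egr1 and Ier2 had 365 and 355 CPM in WT macrophages and 117 and 205 CPM in knockout macrophages. In nonclassical monocytes Egr1 had 215 and 177 CPM in WT 1 and 2 against 258 and 128 CPM in knockout 1 and 2, where the groups overlapped, and Ier2 436 and 428 CPM in WT against 524 and 487 CPM in knockout. The differences were 1.61 ± 0.18 and 1.03 ± 0.16 (adjusted p = 1.12e-04 and 0.00504). Of the 24 tested genes listed because they had changed most in knockout alveolar macrophages in an earlier account of these data, 1 passed in nonclassical monocytes, the platelet gene Clec1b, and their median log2 fold change was 0.023. The share of all genes tested that passed there was 0.967%. Commd10 rose by 1.69 more on the log2 scale in nonclassical monocytes than in macrophages (adjusted p = 0.0127).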

How the data were processed

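Unique counts per gene and cell were deposited by the authors as 1 matrix for each of 4 libraries. Cell Ranger 3.0.2, Seurat 3.0.0 and the build mm10 are named in the submitters' processing notes. The matrices hold 16528 barcodes and 31053 genes, of which 30934 were matched by identifier to GENCODE M21. Cells under 200 genes or over 10% mitochondrial counts were dropped, and the libraries ran from 21780914 to 27045250 UMIs. The members and all gene lists were chosen with earlier results of these data known.

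Counts were summed over the cells of a class in each library and tested between genotypes with edgeR 4.0.16 (R 4.3.3; quasi-likelihood, TMM scaling, default filter on low counts, Benjamini-Hochberg adjustment). Differences between classes were tested with an interaction term and the library as a block. DESeq2 1.42.0 and limma 3.58.1 (voom) were alternatives, and the fits were tested on simulated data. Classes other than nonclassical monocytes followed marker rules. Nonclassical against classical levels used log2 of CPM plus 5 and no test. Doublets were scored against simulated pairs of cells at an expected 0.8% per 1000 cells, kept in the main results and left out in an alternative. Shares were tested with exact permutation tests, and intervals are Clopper-Pearson. Python 3.11.15 with scipy 1.17.1 was used.

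Named genes were Lmna, Lmnb1 and Lmnb2, known regulators and markers of the cells, the 10 highest and 10 lowest log2 fold changes among genes that passed, reached 20 CPM in the higher genotype and separated the groups, up to 4 members of each list, and up to 5 genes per direction in each interaction. Some genes that met this rule are not reported here. Other genes that passed were named after their values were seen. No gene on a sex chromosome, of immunoglobulin, T cell receptor or hemoglobin, or known only as a gene model, was eligible for the highest and lowest lists. The counts of 2 libraries of a genotype differed by more than sampling noise (chi-square per degree of freedom 4.48 in WT and 4.68 in knockout), so no library was taken as a copy of another. Across the 4 libraries 27 barcodes were shared.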

Additional observations from a re-analysis of the deposited data

Results flagged for a closer look

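Of the genes whose knockout effect differed between 2 cell classes, the 14 with the smallest p, up to 5 per direction and comparison, are given here as log2 knockout effect in nonclassical monocytes minus that in the other class. Against classical monocytes the differences were 1.25 for Pltp, -1.87 for Hebp1, -4.49 for Cd7 and -5.63 for Cxcl9, with edgeR adjusted p of 0.0270, 0.0270, 0.0270 and 0.0197. Cd7, a surface protein of lymphoid cells, had 8.10 and 5.88 CPM in WT against 0.366 and 0.851 CPM in knockout in nonclassical monocytes, and Cxcl9, a chemokine induced by interferon gamma, had 1.47 and 4.62 CPM in WT against 6.22 and 0.426 CPM in knockout.

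Against alveolar macrophages the differences were 6.82 for Cxcl10, 3.53 for Apoc1, 1.78 for Prdm1, 1.61 for Egr1 and 1.03 for Ier2. They were -3.79 for Pf4, -2.74 for Wfdc21, -2.12 for Phlda3, -2.10 for Mmp8 and -0.73 for Ccl6. Cxcl10, another interferon-induced chemokine, had 4.42 and 9.66 CPM in WT against 29.99 and 73.6 CPM in knockout in nonclassical monocytes, against 14 CPM in WT and 0.779 CPM in knockout alveolar macrophages. Prdm1, which encodes the repressor Blimp-1, had 18 and 22.3 CPM in WT against 24.1 and 26.8 CPM in knockout in nonclassical monocytes, and went from 99.7 to 37.2 CPM in the macrophages. Ccl6, a chemokine, had 640.4 and 597 CPM in WT against 826 and 612 CPM in knockout in nonclassical monocytes. Pf4 and Wfdc21 were too low to be tested between the genotypes once cells of a second class were left out.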

How the results depend on the processing

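With 2 libraries a genotype, 1 library can decide a count, and depth limited the genes under 20 CPM. Between the genotypes 88 genes passed, against 321 with no filter beyond 1 count, 47 with DESeq2 (38 of them among the 88), 43 with at least 4 selecting genes (38) and, in a setting added after the data were seen, 33 among cells with few class II UMIs (28). Leaving out 1 library gave 46 to 234. Against classical monocytes 52 genes passed with no filter, 0 with at least 10 counts in each library (490 at an unadjusted p under 0.05 in edgeR), 1 without doublets and 9 without cells of a second class, and 12 to 34 with 1 library left out. Against alveolar macrophages 206 passed with no filter and 81 to 154 with 1 library left out. The cause of these shifts was not tested. In cell numbers, TMM scaling over classes turned the sign to -0.016 (adjusted p = 0.999). The share of cells with 10 or more class II UMIs averaged 27.9% after thinning and 42.7% without. Among the 120 genes followed singly, more lost a call without WT 1 than in any other setting, and none gained one there. Over the 88 genes as a whole, most calls were lost in that setting. Without cells of a second class, the share of nonclassical monocytes no longer overlapped between genotypes (6.98% ± 0.357 in WT, 7.94% ± 0.362 in knockout; exact permutation p = 0.33, the smallest possible).

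The correlation of same-numbered deviations was 0.060 over 9105 genes. A value over all genes cannot show whether some of them follow the replicate number. The class II share was higher, and both nonclassical shares lower, in the second library of each genotype. With the replicate block 55 genes passed, 34 of them among the 88, and the cell number effect was 0.10 (edgeR adjusted p = 0.867).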
